A study of Mus musculus with 5 samples.

Results

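The glucocorticoid receptor gene Nr3c1 and 9 genes of its pathway were followed in mouse hepatocytes from the fed state into a day of fasting. The 10 genes were chosen by symbol out of 32285 genes in the count matrix: the receptor, the enzyme Hsd11b1 that regenerates its ligand inside the liver cell, and 8 genes known to respond to the hormone (Fkbp5, Tsc22d3, Klf9, Zbtb16, Sgk1, Ddit4, Errfi1 and Lpin1). All 10 symbols were found.

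Glucocorticoids, corticosterone in the mouse, are adrenal steroids that cross the cell membrane and bind a cytoplasmic receptor held in a ligand-ready state by heat shock protein chaperones. The bound receptor enters the nucleus and acts on genes through palindromic response elements or through other transcription factors. In liver the hormone is known for raising amino acid breakdown and glucose production in fasting. Its level in blood also follows the clock and, in nocturnal animals kept on free food, peaks near the onset of darkness. Corticosterone was not measured in the files used here.

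Hepatocytes came from C57BL/6J mice, male, wild-type (WT) and fed normal chow. All groups shared the same 3 days of training, in which food was given for 8 h in daytime and withheld for 16 h overnight. All groups then had 4 h with food and with drinking water holding 20% sucrose. The fed group was taken at that point (0 h), and the others 4, 8, 16 and 24 h after food and sucrose water were removed. The clock hours were 13, 17, 21, 5 and 13 in that order, so that fasting time and clock hour cannot be told apart except between 24 h and fed, which share hour 13. Each group was 1 droplet library of single cells, and how many mice it came from is not stated in the labels.

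Each library held 10000 barcodes and between 40002260 and 68330252 UMIs (unique molecular identifiers, each standing for 1 captured transcript). Barcodes of 1000 or more UMIs, 500 or more genes and 2 to 30% mitochondrial UMIs were taken as hepatocytes, which left 7826, 4567, 2716, 9125 and 4576 barcodes in time order. The UMI and gene limits alone were passed by 9999, 9999, 3325, 9363 and 10000 barcodes. Hepatocytes had medians of 5408, 12097, 15005, 4391 and 8979 UMIs, so the fed and 16 h libraries were the shallowest. Their median mitochondrial shares were 11.9, 19.1, 9.79, 13.7 and 16.3%. What part these differences have in the levels below was not tested. The 7 hepatocyte markers (Alb, Apoa1, Ttr, Apoc3, Trf, Fgb and Ahsg) were detected in every library. Markers of other liver cells differed between libraries: the 6 endothelial genes summed to 64.8, 9.64, 8.99, 25.3 and 15.2 CPM, and the 6 Kupffer cell genes to 35.7, 2.46, 0.148, 4.62 and 4.31 CPM. Barcodes carrying such markers numbered 205, 8, 12, 49 and 34. Their part in a result is given where it is more than small, which was the case for Sgk1. Levels are UMIs summed over hepatocytes for each 1000000 nuclear-encoded UMIs (CPM). With 1 library a group there is no test. The 95% intervals are exact and cover counting error only, not differences between mice.

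Because the response element is the known contact of the receptor with DNA, promoter sequences were searched first. RefSeq start sites on GRCm38.p6 gave 16 windows, each of 300 bases (250 before the start to 50 after it), for 8 of the 10 genes. Nr3c1 and Zbtb16 had no entry. The full palindrome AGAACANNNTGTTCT occurred in 1 of the 16 windows, at an internal start of Sgk1, and in 3 of 32851 windows of all genes (0.00913%). It lies at chr10:21993701-21993715 on the plus strand, 189 to 175 bases before that start, and is intronic in 5 annotated Sgk1 transcripts. The palindrome, in capitals, is shown with its flanks because no other window of these genes holds it.

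Sgk1: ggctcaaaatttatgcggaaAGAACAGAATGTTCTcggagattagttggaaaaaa

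The 250 bases before the start sites of Fkbp5 and Lpin1, which rose 13.0-fold and 8.69-fold at 8 h, are shown for comparison. Capitals mark the E-box CACGTG, the element of clock and other basic helix-loop-helix factors, in Fkbp5, and a single half-site AGAACA, read on the opposite strand, in Lpin1. The Fkbp5 stretch is chr17:28486150-28486399 on the minus strand, and the E-box in it is intronic in 3 transcripts that start farther upstream. The Lpin1 stretch is chr12:16610967-16611216 on the minus strand, outside the gene.

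Fkbp5: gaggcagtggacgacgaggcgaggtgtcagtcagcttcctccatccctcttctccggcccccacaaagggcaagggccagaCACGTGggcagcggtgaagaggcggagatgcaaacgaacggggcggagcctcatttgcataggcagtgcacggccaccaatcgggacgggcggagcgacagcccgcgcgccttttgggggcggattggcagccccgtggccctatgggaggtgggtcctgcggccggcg
Lpin1: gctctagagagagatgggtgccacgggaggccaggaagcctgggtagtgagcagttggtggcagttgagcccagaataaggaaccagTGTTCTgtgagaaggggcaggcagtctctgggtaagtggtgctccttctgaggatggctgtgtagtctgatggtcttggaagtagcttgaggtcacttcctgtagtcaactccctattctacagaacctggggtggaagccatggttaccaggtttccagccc

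The half-site alone was common: it occurred in 19.0% of all windows and in 5 of these 16, or for 21.3% of all genes and 3 of these 8 (Lpin1, Sgk1 and Tsc22d3). Sgk1 alone has 6 of the 16 windows. The E-box occurred in 7.15% of all windows and in those of Fkbp5 and Sgk1. The cyclic AMP element TGACGTCA (1.79% of windows) was found for Errfi1, and the forkhead site GTAAACA (3.65%) for Hsd11b1 and Klf9. Matches were counted on both strands, and each full palindrome holds 2 half-sites. Response elements in distant enhancers were not searched.

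The receptor gene itself stayed within a 1.68-fold range. Nr3c1 (chromosome 18, minus strand) was at 147.3 CPM fed and at 150.9, 89.8, 140.1 and 136.8 CPM at 4, 8, 16 and 24 h. The 8 h library was low, with an interval of 86.6 to 93.0 CPM apart from the rest, and each of the other 4 overlapped its neighbour in the order of levels. Against fed, its log2 ratio reached -0.71 at 8 h (interval -0.78 to -0.65), short of the 2-fold change used throughout for a call, and lay between -0.11 and 0.03 at the other times. Receptor transcript was thus lowest in the library where Fkbp5, Tsc22d3, Ddit4 and Lpin1 were highest.

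Hsd11b1, whose product converts inert dehydrocorticosterone to corticosterone in hepatocytes, was at 635.7 CPM fed, then 789.6, 633.5, 774.2 and 1023 CPM. The 24 h library was the highest, 1.61-fold above fed at the same clock hour (log2 0.69), and the fed and 8 h libraries overlapped. Over 13 other settings the log2 ratio lay between 0.33 and 0.86 at 24 h and between 0.03 and 0.53 at 4 h. Gm38118, which overlaps Hsd11b1 on the same strand, could share reads with it. No time point reached a 2-fold change. H6pd, which supplies the cofactor for that enzyme, was at 125.1, 180.8, 220.2, 170.5 and 147.7 CPM.

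**Figure D1:**
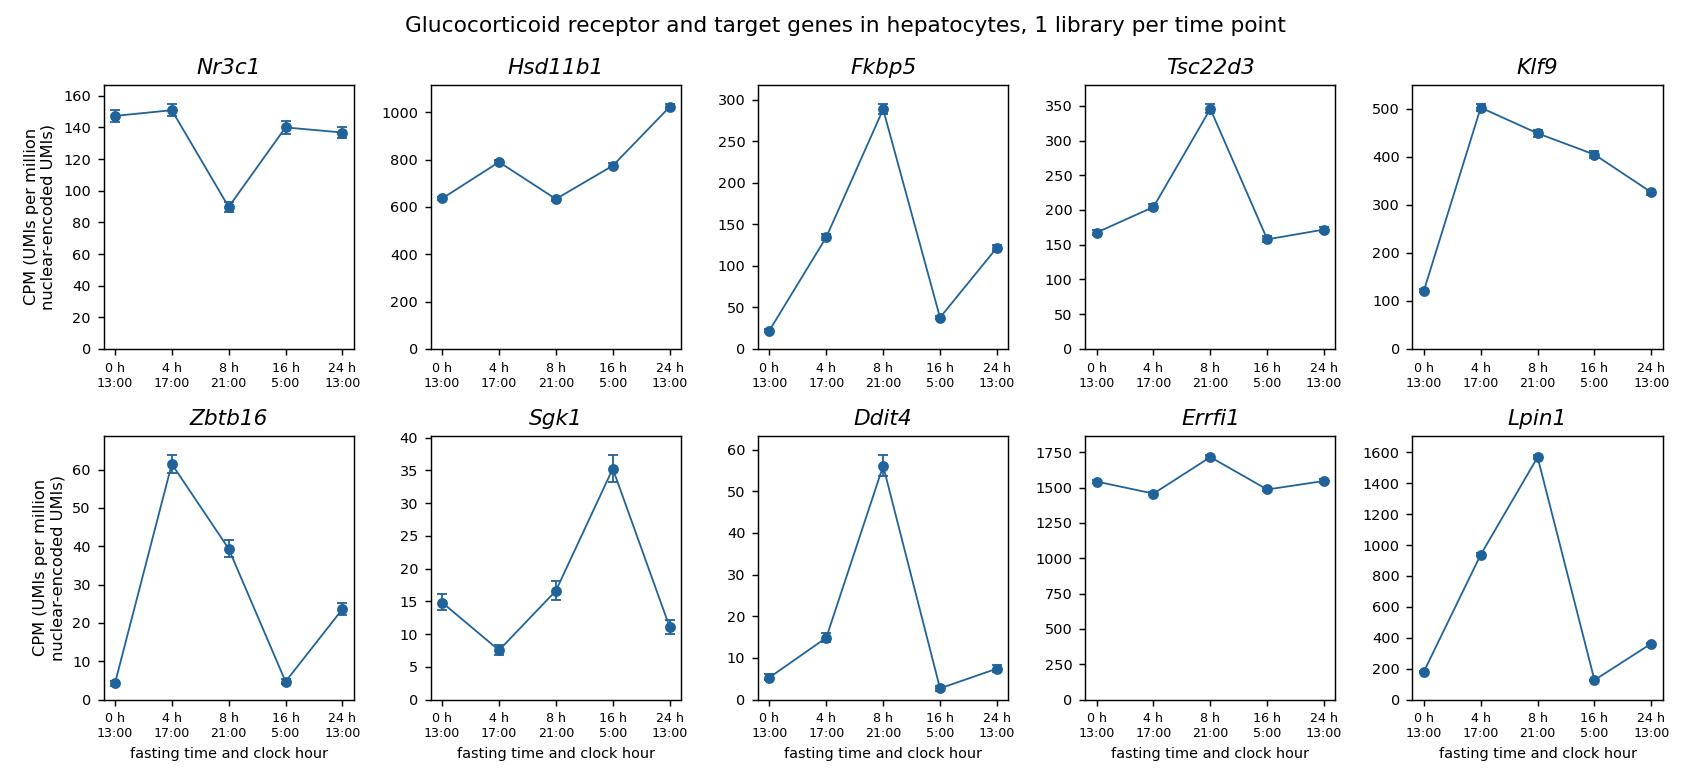
CPM of each of the 10 genes in hepatocytes (y axes, from 0, scale differs by panel) in the 5 libraries in order of fasting time with the clock hour below (x axis); bars are 95% counting intervals, and lines only guide the eye. Fkbp5, Tsc22d3, Ddit4 and Lpin1 peak at 8 h (clock hour 21), Klf9 and Zbtb16 at 4 h, Sgk1 at 16 h and Hsd11b1 at 24 h, while Errfi1 stays between 1458 and 1716 CPM.

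Fkbp5 encodes a co-chaperone that lowers the receptor's affinity for hormone and is a widely used transcript readout of receptor activity. It was at 22.1 CPM fed (interval 20.7 to 23.7) and at 134.3, 288.3, 37.7 and 121.8 CPM at 4, 8, 16 and 24 h. All 5 libraries stood apart in counting error, and the order was fed, 16 h, 24 h, 4 h and 8 h. The level rose 6.07-fold at 4 h and 13.0-fold at 8 h, was 1.70-fold above fed at 16 h and had risen 5.51-fold at 24 h. On the log2 scale these were 2.60, 3.70, 0.77 and 2.46. From 8 to 16 h it fell by 2.94, and from 16 to 24 h it rose by 1.69. The 24 h library was therefore well above fed at the same clock hour, while the 16 h library, between them in time, was 1.70-fold above it and short of a call. Over 13 other settings the 16 h log2 ratio lay between 0.24 and 0.87. It was lowest in barcodes at or below their library's median share of UMIs from 6 acute-phase genes. Other RNAs annotated within Fkbp5 (AC154912.5 and AC154912.3 on its strand) could share reads with it.

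Tsc22d3, which encodes the anti-inflammatory leucine zipper protein GILZ, moved in the same 8 h library and less than Fkbp5. It was at 167.5 CPM fed and at 204.3, 345.5, 157.7 and 171.8 CPM thereafter. The 8 h library was 2.06-fold above fed (log2 1.05), and the fed and 24 h libraries overlapped. With hepatocytes of 5000 or more UMIs the 8 h log2 ratio was 0.98, just short of 2-fold.

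Klf9, a Krüppel-like repressor that responds to both glucocorticoid and thyroid hormone, kept its increase through the whole fast. It was at 121.1 CPM fed and at 502.8, 449.3, 405.0 and 326.4 CPM. All 4 fasted libraries were above fed, by 4.15-, 3.71-, 3.34- and 2.70-fold, and the order from highest to lowest was that of fasting time. The order of 4 and 8 h was not stable: with 2 to 15% mitochondrial UMIs the log2 ratios were 1.60 and 1.87, and with the mean of per-cell CPM 1.94 and 2.04. In contrast to Fkbp5, the log2 change from 8 to 16 h was only -0.15.

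Zbtb16, a zinc finger transcription factor, was nearly silent in the fed library at 4.21 CPM (159 UMIs). In the fasted libraries it was at 61.5, 39.4, 4.68 and 23.6 CPM. At 4, 8 and 24 h it had risen 14.6-, 9.35- and 5.61-fold. The fed and 16 h libraries overlapped in counting error, and both were under the 10 CPM needed in one of 2 libraries for a call.

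Lpin1 encodes a phosphatidate phosphatase that also acts as a transcriptional coactivator in fatty acid oxidation. It was at 180.6 CPM fed and at 937.5, 1568, 125.9 and 362.5 CPM. The level was 5.19-fold higher at 4 h and 8.69-fold higher at 8 h, and the 16 h library was the lowest, at log2 -0.52 against fed. From 8 to 16 h the fall was by 3.64 on the log2 scale. The 24 h ratio of 1.01 met the 2-fold rule narrowly, with a range of 0.70 to 1.18 over 13 other settings.

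Ddit4, an inhibitor of mTOR signalling, had the widest range of the set, 20.9-fold. It was at 5.29 CPM fed and at 14.8, 56.1, 2.68 and 7.42 CPM. The rises over fed were 2.81-fold at 4 h and 10.6-fold at 8 h. At 16 and 24 h both libraries compared were under 10 CPM, and no call was made there (log2 -0.98 and 0.49). From 8 to 16 h it fell by 4.39 on the log2 scale, from 1898 UMIs to 90.

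Errfi1, a feedback inhibitor of the epidermal growth factor receptor, had the highest CPM of the 10 in all 5 libraries and the narrowest range, 1.18-fold. It was at 1543 CPM fed and at 1458, 1716, 1487 and 1547 CPM. Its 4 log2 ratios to fed lay between -0.08 and 0.15, and the fed and 24 h libraries overlapped. A change of scaling by TMM shifted the median of all genes from between -0.10 and -0.02 to between 0.04 and 0.16. A shift of that size is as large as these ratios, so no direction is given for Errfi1, nor for Nr3c1 and Tsc22d3 at 4, 16 and 24 h or Hsd11b1 at 8 h.

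Sgk1, a kinase that regulates ion channels and FOXO factors, did not follow the others. It was at 14.8 CPM fed and at 7.53, 16.6, 35.3 and 11.1 CPM. The 16 h library was the highest, 2.38-fold above fed (log2 1.25), in the library where Fkbp5, Zbtb16, Ddit4 and Lpin1 were at their lowest or next to it. It was lowest at 4 h, where the ratio of -0.98 stopped short of 2-fold (-1.63 to -0.43 over the other settings), and the fed and 8 h libraries overlapped. The 16 h library also had the highest summed level of 6 acute-phase genes (12699 CPM, against 1615 to 4674 in the other 4) and of 9 immediate early genes (584 CPM, against 233 to 392). Restricted in each library to barcodes at or below its median immediate early share, the 16 h ratio of Sgk1 was 0.99, and with the acute-phase share it was 1.24. The mean of per-cell CPM gave 0.76.

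Sgk1 also stood out by where its UMIs lay. The 205 barcodes of the fed library with markers of another cell type held 33.8% of its Sgk1 UMIs, at 460 CPM against 9.93 CPM in the remaining barcodes. In the fasted libraries such barcodes held 2.33, 2.14, 2.62 and 10.6%. Without them the levels were 9.93, 7.36, 16.3, 34.4 and 9.93 CPM, and the 16 h ratio was 1.79. For Fkbp5 they held at most 2.51%, and the level was 21.8 CPM fed without them.

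**Figure D2:**
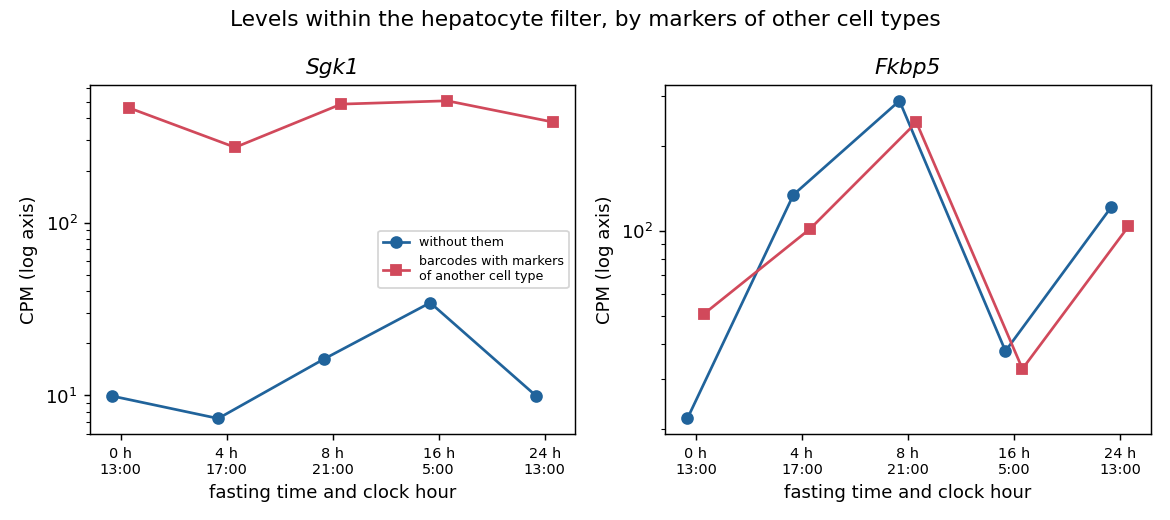
CPM of Sgk1 and Fkbp5 (log axes) by library for hepatocyte-filter barcodes with markers of another cell type (red squares, 205, 8, 12, 49 and 34 barcodes) and for the rest (blue circles). Sgk1 is 460 against 9.93 CPM in the fed library, while the Fkbp5 lines lie near each other in the fasted libraries.

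Read together, 5 of the 10 genes had risen 2-fold or more at 4 h (Fkbp5, Klf9, Zbtb16, Ddit4 and Lpin1), where 9.71% of 7299 genes tested changed, 3.67% rising and 6.04% falling. At 8 h the same 5 and Tsc22d3 had risen, 6 of 10, where 16.9% of genes changed, 5.68% rising and 11.2% falling. At 16 h it was 2 of the 8 with enough counts, Klf9 and Sgk1, where 6.47% changed (2.87% up, 3.60% down). At 24 h it was 4 of 9 (Fkbp5, Klf9, Zbtb16 and Lpin1), where 13.5% changed (4.73% up, 8.77% down). None of the 10 fell 2-fold against fed at any time, but Sgk1 at 4 h passed that line under several other settings. It was at -1.30 with 0 to 30% mitochondrial UMIs and at -1.63 with the mean of per-cell CPM. Without barcodes of another cell type Sgk1 stayed well short of that line, at 9.93 CPM fed and 7.36 CPM at 4 h. The balance of all genes depends on the scaling: with TMM, another way to set library sizes, 437 rose and 257 fell of 7209 at 4 h, 727 and 529 of 7361 at 8 h, 245 and 212 of 7148 at 16 h, and 525 and 438 of 7254 at 24 h. The number of the 10 that rose was the same with it at all 4 times. The median log2 ratio of the tested members was 0.90, 1.47, 0.12 and 0.69, against -0.09, -0.08, -0.02 and -0.10 over all tested genes. The 4 comparisons share the fed library.

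Step by step, 3 genes rose 2-fold from 4 to 8 h (Fkbp5, Sgk1 and Ddit4), a step in which 3.18% of genes changed and 1.12% rose. From 8 to 16 h (clock hour 21 to 5), 5 fell and Sgk1 rose, where 17.8% changed, 7.25% falling and 10.5% rising. Fkbp5 fell by 2.94, Tsc22d3 fell by 1.13, Zbtb16 fell by 3.07, Ddit4 fell by 4.39 and Lpin1 fell by 3.64. From 16 to 24 h (clock hour 5 to 13), Fkbp5, Zbtb16 and Lpin1 rose by 1.69, 2.33 and 1.53, Sgk1 fell by 1.67, and 11.0% of genes changed (5.19% up, 5.78% down). Neighbouring steps share a library.

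**Figure D3:**
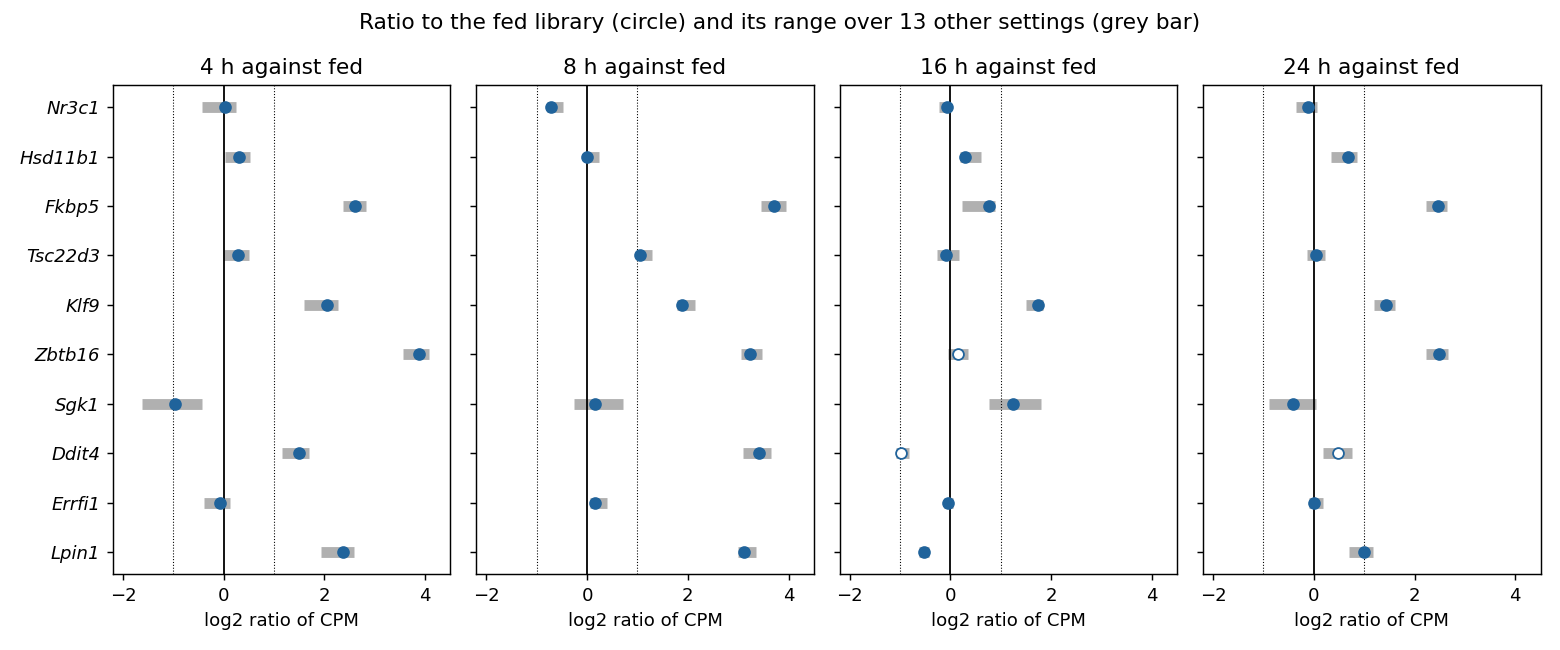
Log2 ratio of CPM to the fed library for each gene (circles, hollow where both libraries are under 10 CPM) at 4, 8, 16 and 24 h, with the range over 13 other settings (grey bars) and dotted lines at 2-fold. Fkbp5, Klf9, Zbtb16 and Lpin1 lie beyond 2-fold at 4 and 8 h under every setting drawn, and Lpin1 at 24 h and Sgk1 at 16 h have bars that cross the line.

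In the shape of their profiles over the 5 libraries (log2 of CPM plus 1, minus the mean), the closest pair among the 5 genes that had risen by 4 h was Ddit4 and Lpin1, with a root mean square difference of 0.41, then Fkbp5 and Lpin1 with 0.57. Among 6932 candidate genes of at least 10 CPM on average, the nearest to Fkbp5 was Got1, cytosolic aspartate aminotransferase, at 0.20. Got1 was at 121.2, 554.9, 1331, 206.8 and 458.6 CPM. The next were Gm16573 and Eif4ebp3, both at 0.32. Tsc22d3 was nearest to Rpl13a (0.079), Aldoc (0.080) and Slc25a15 (0.086), and Nr3c1 to Cox16, N4bp2l2 (both 0.053) and Zcchc7 (0.062). With 5 points a profile is a description only.

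Of 20 other known hepatic glucocorticoid targets, 9 had risen and 4 had fallen at 4 h. At 8 h it was 13 and 3 of 20, at 16 h 6 and 1 of the 18 with enough counts, and at 24 h 10 and 3 of 19. Over all genes 3.67, 5.68, 2.87 and 4.73% had risen and 6.04, 11.2, 3.60 and 8.77% had fallen at these times. The 20 targets, like the 10 members, were chosen with earlier results of these data known, so their counts do not stand apart from that choice. With TMM the 4 h count was 13 and 2. Their median log2 ratios were 0.88, 1.33, 0.65 and 1.03, beside the all-gene values given above. The largest changes were in the growth arrest gene Cdkn1a, at 2.59 CPM fed and 264.3 CPM at 8 h (log2 6.67), and in the metallothioneins Mt2 (6.09 at 4 h) and Mt1 (5.79 at 8 h). Pck1, the gluconeogenic enzyme, stayed high throughout (2.15, 2.03, 2.06 and 2.39), as did Angptl4, an inhibitor of lipoprotein lipase (3.80, 5.16, 3.08 and 3.86). Per1, a clock gene with a known response element, was at 0.94, 1.56, 0.31 and 1.49, so that it too was low in the 16 h library. Dusp1, a phosphatase that silences MAP kinases, had fallen at 4, 8 and 24 h (-1.17, -1.56 and -1.80), as had Per2 at all 4 times. Many of these genes also answer to glucagon, insulin, fatty acids or the clock.

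Of 10 chaperones that hold the receptor, 2, 2, 5 and 5 had fallen at 4, 8, 16 and 24 h, where 6.04, 11.2, 3.60 and 8.77% of all genes had. The co-chaperone Bag1 had risen at 8 h (1.01). At 24 h only 2 had fallen and 1 had risen with TMM, and likewise with 0 to 30% mitochondrial UMIs. Hsp90aa1, the inducible heat shock protein of the complex, was at 500.8, 201.0, 97.4, 123.6 and 63.4 CPM, a log2 ratio of -2.98 at 24 h. Stip1, the adaptor between the heat shock proteins, was at -1.97 at 24 h. Fkbp4, the paralogue of Fkbp5 that favours hormone binding and nuclear transfer, was at 198.3, 140.6, 111.7, 62.1 and 88.7 CPM (-1.68 at 16 h). In CPM per gene, which in end-counted libraries is not divided by transcript length, Fkbp5 was below Fkbp4 fed and at 16 h and above it at 8 and 24 h, and their intervals overlapped at 4 h.

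No count is given for the receptor coregulators, since that list was shortened after values were seen. The remodeller Smarca4 was at a log2 ratio of -0.88 and the coactivator Ncoa2 at 0.72 at 16 h, and the acetyltransferase Ep300 at -0.57 at 8 h. Of the steroid handling genes, 0 of 5, 1 of 5, 0 of 6 and 2 of 6 with enough counts changed, beside 9.71, 16.9, 6.47 and 13.5% of all genes. The steroid dehydrogenase Akr1c6 was at -1.30 at 8 h and -1.92 at 24 h, and the efflux pump Abcb1a at 1.40 at 24 h. Nr3c2, the mineralocorticoid receptor that binds the same hormone, was at 3.73 to 12.4 CPM, and Hsd11b2, the inactivating enzyme, had no UMI in hepatocytes of any library.

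**Figure D4:**
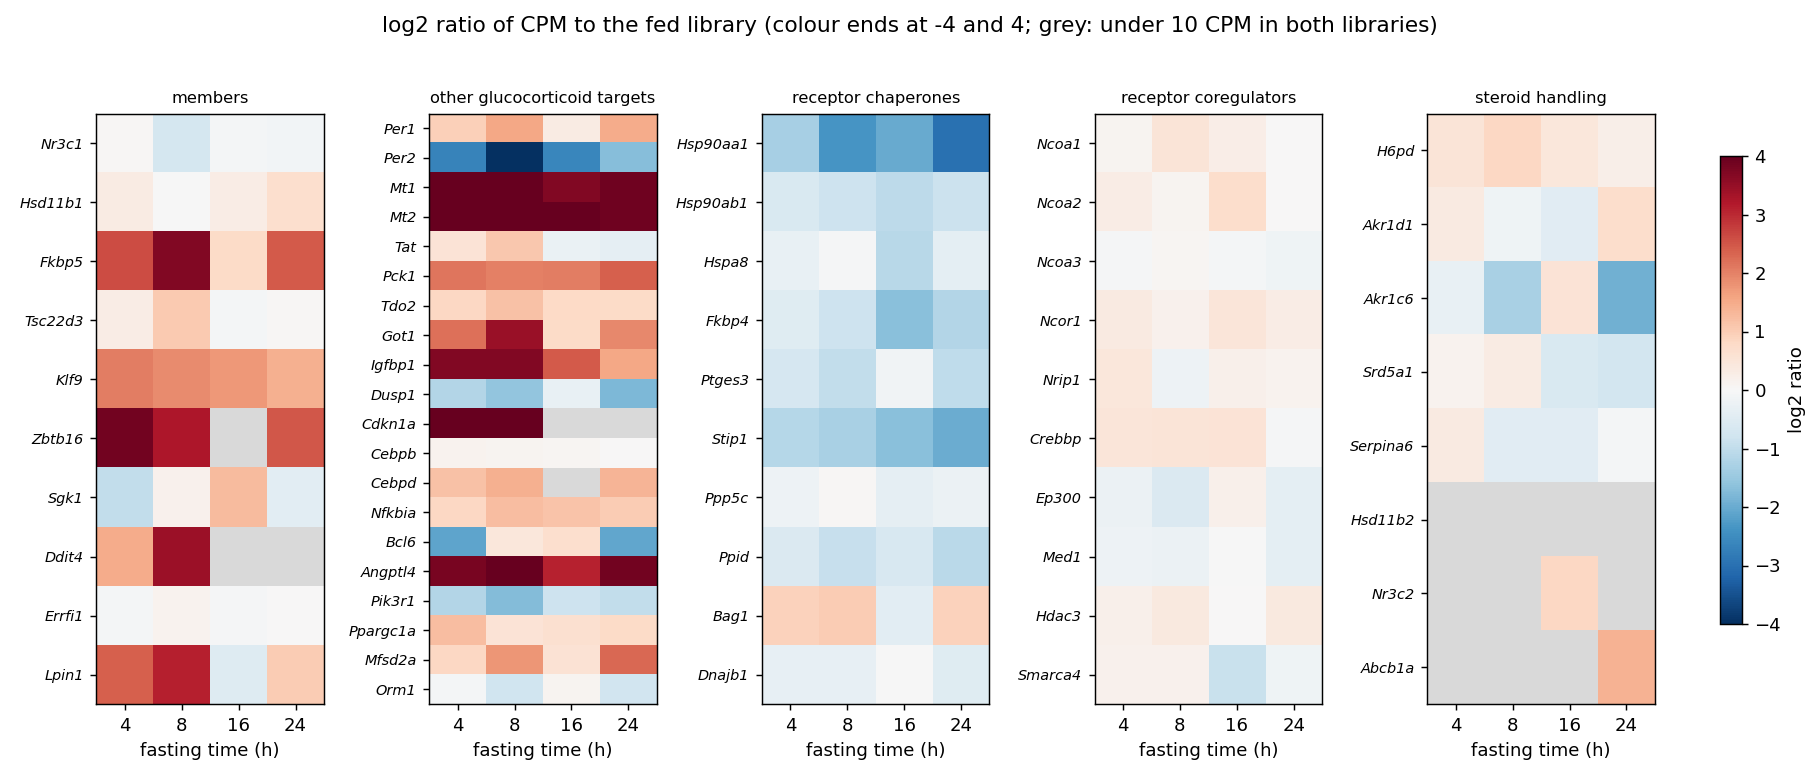
Log2 ratio of CPM to the fed library (colour, ending at -4 and 4, grey where both libraries are under 10 CPM) for the 10 genes and 4 lists of the pathway (rows) at 4, 8, 16 and 24 h (columns). Most chaperones are blue, and the column at 16 h is paler than that at 8 h for Fkbp5, Got1 and Per1.

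Because clock hour changed with fasting time, 15 clock genes were read beside these, among them Per1 and Per2, which are also among the 20 targets above. At 24 h, Per1 had risen and Per2 fallen of 13 (13.5% of all genes changed), against 4 and 8 of 14 at 8 h (16.9%). Dbp, a clock output factor, was at 55.3, 6.17, 1.92, 79.7 and 62.9 CPM, and Per3 at 28.9, 11.9, 2.37, 19.7 and 37.8 CPM, so both were lowest in the 8 h library where Fkbp5 was highest. Per2 was at 57.7 CPM fed and 1.63 at 8 h (-5.15). At 4 h, 2 of 14 had risen and 5 fallen (9.71% of all genes changed), and with TMM 5 and 5. At 16 h, 1 of 13 had risen and 2 fallen (6.47%). How much of any member's change belongs to clock hour was not tested. Of the immediate early genes, 1 of 6, 2 of 5, 2 of 7 and 1 of 5 changed, which can be set beside the same all-gene shares, the largest being Nr4a1 (4.95) and Egr1 (1.94) at 16 h and Junb (-2.25) at 8 h. Of the acute-phase genes, 4 of 5, 3 of 5, 5 of 6 and 3 of 5 changed, led by Cxcl1 (-7.97 at 8 h), Saa3 (5.19) and Lcn2 (4.74), both at 16 h.

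Position in the liver lobule was read from Cyp2f2, high around the portal vein, and Cyp2e1, high around the central vein. Hepatocytes of each library were ranked by the log2 ratio of Cyp2e1 to Cyp2f2 UMIs and split into 3 equal parts. These are ranges of a score and not positions in tissue. Glul, a central vein marker that did not enter the score, was at 163 CPM in the portal and 318.5 in the central part of the fed library. In the 4 h library these were 34.4 and 256 CPM, in the 8 h library 52.2 and 108.5, and in the 16 h library 28.6 and 254. At 24 h it was at 57.1 and 46.4 CPM, so the score did not order Glul there. Depth fell along the score: the median UMIs of the portal and central parts were 6713 and 2782 fed, 20092 and 3516.5 at 4 h, 19218.5 and 9796 at 8 h, 4558 and 3837 at 16 h, and 14993 and 2867 at 24 h.

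At most 1 of the 10 genes differed 1.5-fold between the portal and central parts in the fed, 4, 8 and 16 h libraries. Zbtb16 and Ddit4 fed and at 16 h, and Sgk1 at 4 h, were under 10 CPM in both parts and could not be called. In the fed library Sgk1 did, where 7.04% of genes did and 5.30% were higher in the central part. It was at 11.0, 9.43 and 29.3 CPM from portal to central (log2 portal to central -1.42), and without barcodes of other cell types this ratio was 0.16. None did at 4 h (8.69% of genes) or 8 h (5.26%), but at 4 h 5 did with 2 to 15% mitochondrial UMIs, Lpin1 going from 0.06 to 0.93 and Nr3c1 from 0.15 to 0.84, and 4 did with the mean of per-cell CPM. At 16 h Lpin1 did (6.99% of genes, 2.34% with the same direction), at 143.2, 141.2 and 89.3 CPM, a portal excess of 0.68 with a range of 0.58 to 0.92 over 8 other settings. With hepatocytes of 5000 or more UMIs it was 0.58, just short of 1.5-fold.

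At 24 h, 5 of the 10 differed, and Ddit4, under 10 CPM in both parts, could not be called. Of all genes with enough counts 25.6% differed, 14.9% higher in the portal and 10.7% in the central part. Lpin1 was at 411.9, 373.1 and 202.6 CPM from portal to central (log2 1.02), Zbtb16 at 27.6, 21.5 and 16.2 (0.77), Nr3c1 at 152.6, 135.7 and 93.7 (0.70) and Klf9 at 354.9, 331.7 and 235.2 (0.59). Sgk1 was higher in the central part (-0.60), and at 0.17 without barcodes of other cell types. With hepatocytes of 5000 or more UMIs none of the 5 remained, and with a score per 10000 UMIs 1 did. With 2 to 15% mitochondrial UMIs all 10 genes passed 1.5-fold, and with the mean of per-cell CPM 8 did. These settings also change which barcodes fall in each part, and the part of depth in the portal excess at 24 h was not tested.

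Below 1.5-fold, Tsc22d3 was higher in the central part at 8 h, at 320.6, 317.1 and 425.0 CPM (log2 portal to central -0.41). That direction held in 8 of 8 other settings, from -0.51 to -0.29. Fkbp5 had the opposite order in that library, at 303.3, 291.0 and 257.6 CPM (0.24, with 0.17 to 0.45 in the same settings). The difference between these orders was not tested.

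**Figure D5:**
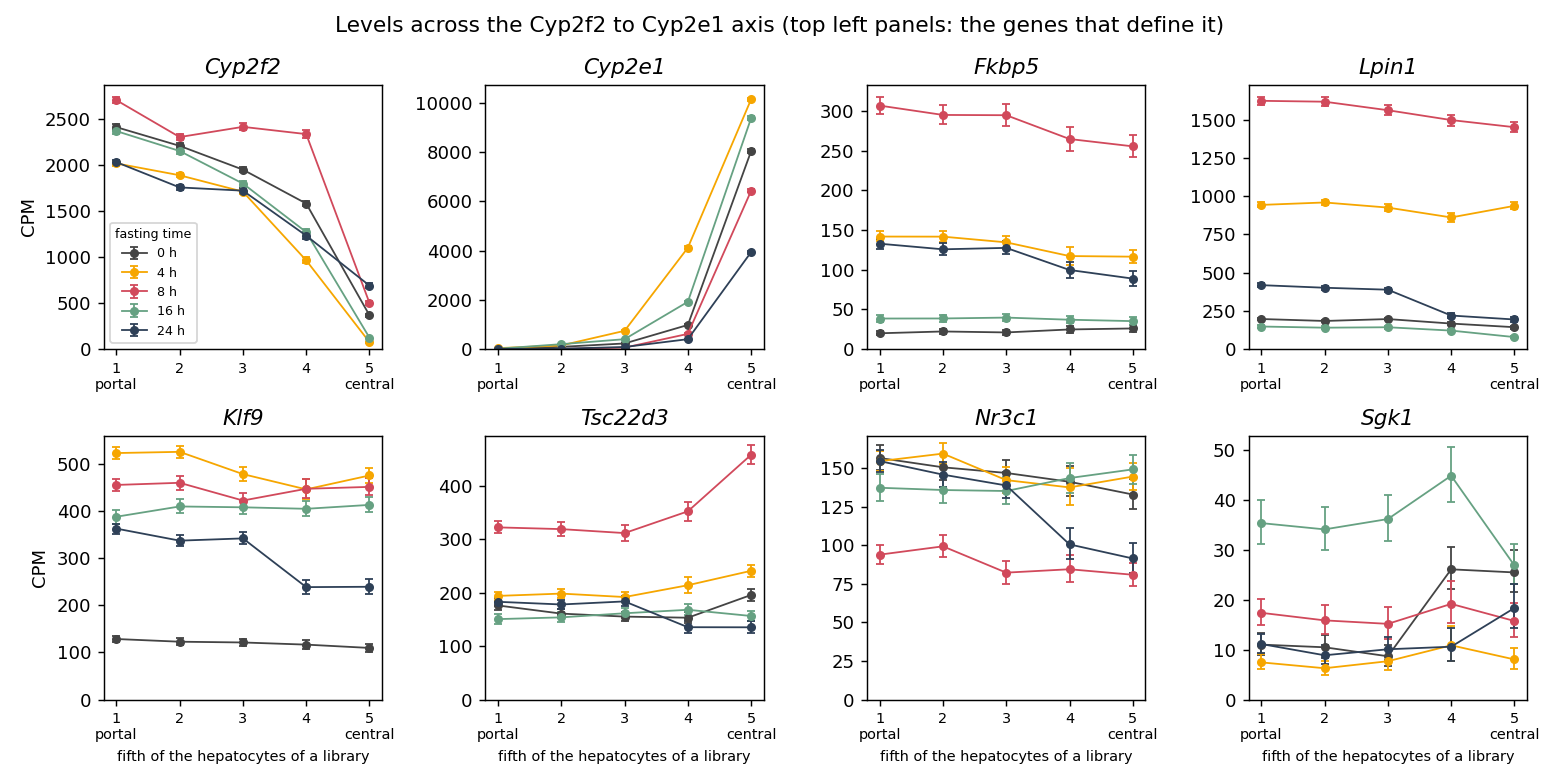
CPM (y axes, from 0) in 5 equal parts of the hepatocytes of each library ranked from Cyp2f2-rich (1, portal) to Cyp2e1-rich (5, central), coloured by fasting time, with 95% counting intervals. The first panels show the genes that define the axis. Fkbp5 and Klf9 keep the order of the libraries along most of it, and Tsc22d3 at 8 h climbs toward the central end.

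The ratios to fed were also read within each part of the axis. At 4 and 8 h Fkbp5, Klf9, Zbtb16 and Lpin1 were 2-fold or more above fed in each of the 3 parts. For Fkbp5 at 8 h the log2 ratios were 3.86, 3.75 and 3.36 from portal to central, and at 24 h 2.63, 2.54 and 1.88. Calls of Tsc22d3, Ddit4, Lpin1 and Sgk1 were not met in every part, and Sgk1 at 4 h was 2-fold below fed in the central part alone (-1.67). Tsc22d3 at 8 h was at 0.90, 1.03 and 1.24, short of 2-fold in the portal part. Ddit4 at 4 h was at 1.67, 1.68 and 0.80, short in the central part, and at 8 h at 3.43, 3.46 and 3.31. Lpin1 at 24 h was at 1.11, 0.96 and 0.46, past 2-fold in the portal part alone. Sgk1 at 16 h was at 1.65 and 1.97 in the portal and middle parts and at 0.23 in the central part. The central ratios of Sgk1 at 4 and 16 h are both against the fed central part at 29.3 CPM. That part was high with the barcodes of other cell types in it, as given above. Over all parts and without those barcodes, Sgk1 was at 9.93 CPM fed and 7.36 CPM at 4 h.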

How the data were processed

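The members and gene lists were chosen with earlier results of these data known. A gene of the coregulator list is not reported here, and was left out of that list and its counts after values were seen. The deposited values are UMI counts per gene and barcode, not normalized, made with Cell Ranger 6.0.1 on build mm10 per the submitters' processing notes. The barcode table names the library of each barcode and gives no cell types. No column of per-sample values was set aside. Libraries were made with 3′ chemistry per the labels' protocols, so a transcript is counted near its end whatever its length.

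UMIs were summed over the 28810 of 50000 barcodes that passed the filter in the text. No doublet caller was run, and doublets remain. Barcode sequences found in more than 1 library covered 519 barcodes, 282 of them hepatocytes. A barcode was read as carrying another cell type when its markers made up 0.3% or more of its UMIs with at least 2 of them detected. For erythroid markers the share was 3%. The lists were markers of endothelial, Kupffer, stellate, cholangiocyte, lymphoid, neutrophil and erythroid cells. In the fed library the last 5 summed to 19.3, 67.6, 4.74, 0.318 and 35.6 CPM. Of the zonal landmark lists used in an alternative score, 12 portal genes summed to 7811 and 14 central genes to 5098 CPM there.

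A call needed 2 times the CPM (1.5 times between parts of the lobule axis) and 10 CPM in either library or part. Levels have Poisson and ratios conditional binomial 95% intervals, and the axis score used a pseudocount of 0.5. The functions were tested on simulated counts. The named genes are the 10 members, the 3 genes of each list with the largest change, list genes quoted as markers, and the 3 nearest profiles of Fkbp5, Tsc22d3 and Nr3c1. Pck1, Angptl4, Per1, Dusp1, H6pd, Bag1 and Hsd11b2 were chosen from the lists after their values were seen. Alternatives changed the scaling (TMM from edgeR 4.0.16, median of ratios, other denominators), filters, minimum CPM, axis and barcode subsets. Leaving out shared barcodes and the score per 10000 UMIs were added after seeing the data. Positions are from GENCODE M21 (GRCm38). Scripts ran in python 3.11.15 with pandas 2.3.3, scipy 1.17.1 and numpy 2.4.6, and plots in matplotlib 3.10.9.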

Additional observations from a re-analysis of the deposited data

Results flagged for a closer look

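Barcodes with under 2% mitochondrial UMIs were outside the main comparisons above and entered only the alternative with 0 to 30% mitochondrial UMIs. Several target genes were above their fed level in them. They numbered 2172, 5345, 576, 234 and 5400 in time order, and 20.9, 34.0, 18.6 and 26.1% of the genes tested in them changed 2-fold at 4, 8, 16 and 24 h. Fkbp5 was at log2 ratios to fed of 1.70, 2.15 and 1.99 at 4, 8 and 24 h, and at 16 h rested on 6 UMIs. Klf9 was at 1.37, 1.06, 1.67 and 1.10 at the 4 times. Zbtb16 was at 3.01 and 3.44 at 4 and 8 h, from 9 UMIs in the fed barcodes. Lpin1 was at 1.82 and 2.42 at the same times, and Ddit4 at 2.36 at 8 h. These 12 values were picked as past 2-fold above fed at 10 CPM or more. Hsd11b1 had the opposite sign, at -0.42 and -0.29 at 4 and 24 h against 0.31 and 0.69 in hepatocytes. Sgk1 in these barcodes was at 34.5 CPM fed and 3.73, 7.85, 33.0 and 5.84 CPM in the fasted libraries. What these barcodes are was not tested.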

How the results depend on the processing

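No paired analysis was possible because each group is 1 library, and for the same reason no library could be left out. Of 520 ratios to fed under other settings, 234 moved beyond their counting interval and 0 calls reversed, though ratios near 0 changed sign (Nr3c1 at 4 h kept its direction in 7 of 13 settings and Errfi1 at 24 h in 4 of 13). Of 400 portal to central ratios, 134 moved and 4 calls were lost with a change of sign, all for Sgk1: in the fed library 0.24 with 5000 or more UMIs and 0.16 without barcodes of other cell types, and at 24 h 0.054 with 0 to 30% mitochondrial UMIs and 0.17 without those barcodes. The number of members past 2-fold at 16 h was 1 in place of 2 with a minimum of 50 CPM, with barcodes of low immediate early share and with the mean of per-cell CPM. With 0 to 30% mitochondrial UMIs, 1 had fallen at 4 h and 3 in place of 4 had risen at 24 h.

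The number past 1.5-fold along the axis moved as well. At 24 h (5) it was 10 with 2 to 15% mitochondrial UMIs, 8 with the mean of per-cell CPM, 2 with a landmark score, 1 with the score per 10000 UMIs and 0 with 5000 or more UMIs. At 4 h (0) it was 5 with 2 to 15% and 3 with 0 to 30% mitochondrial UMIs, 4 with the mean of per-cell CPM, and 1 each with 5 parts, the score per 10000 UMIs and without other cell types. In the fed library (1) it was 4 with 0 to 30% mitochondrial UMIs, and 0 with 5000 or more UMIs or without other cell types. At 16 h (1) it was 0 with 5000 or more UMIs. The cause was not tested.

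List counts also moved. With a minimum of 50 CPM, clock genes were 2, 7 and 1 at 4, 8 and 24 h (from 7, 12 and 2), immediate early genes 1 at 8 and 16 h (from 2) and steroid handling 1 at 24 h (from 2). With no minimum, immediate early genes were 4, 4 and 3 at 4, 8 and 24 h (from 1, 2 and 1). With TMM they were 3 at 4 h, steroid handling 2 at 8 h (from 1) and chaperones 3 at 24 h (from 5). With 0 to 30% mitochondrial UMIs, chaperones were 3 and immediate early genes 2 at 24 h. Fewer genes pass a higher minimum by construction. Depth limits Ddit4, Zbtb16 and Sgk1, with 90, 157 and 343 UMIs in their lowest library.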
